A study of Homo sapiens with 18 samples.

Results

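MALAT1 and 8 protein-coding genes surround the long non-coding RNA gene NEAT1 on chromosome 11, band q13. The 9 genes described here are MALAT1, FRMD8, LTBP3, SLC25A45, TIGD3, DPF2, CDC42EP2, POLA2 and FAM89B. They were chosen by position near NEAT1, and they are 9 of the 62703 genes in the count tables. A further 153 genes of the tables lie within 1 Mb of NEAT1 and were used as the local background. The question was whether the neighbours of NEAT1 changed when the level of NEAT1 did.

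RNA sequencing was performed on human multiple myeloma cells of 3 lines. By label these are AMO1, H929 and LP1. Cells of each line received either gN1E, a gapmeR directed against NEAT1, or SCR, the scrambled control gapmeR, and RNA was taken at 48 h. A gapmeR pairs with its target RNA as a short modified DNA strand, and RNase H then cuts that RNA; here it entered the cells by gymnosis, that is, without a transfection reagent. Each of the 6 groups holds 3 libraries, named by letter, and nothing states that the letters are separate experiments, so the p-values measure only the spread between these libraries. Library totals ran from 28061606 to 69937229 counts, and the AMO1 libraries labelled gN1E were the shallowest, with a median of 29663430. All 8 plasma cell markers examined were expressed in every library, for example IRF4 at 1376 to 2144 CPM (counts scaled to a library of 1000000 reads), whereas of 11 markers of other cells only CD3E, at 7.40 to 24.9 CPM, and COL1A1, at 0.692 to 1.74 CPM, exceeded 0.46 CPM.

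NEAT1 itself went against its labels. In AMO1 it stood at 75.7, 78.8 and 90.8 CPM in the libraries labelled SCR and at 473, 553 and 517 CPM in those labelled gN1E. In H929 the values were 79.8, 72.7 and 79.1 CPM under SCR and 554, 464 and 542 CPM under gN1E. In LP1 they were 135, 173 and 189 CPM under SCR and 656, 667 and 829 CPM under gN1E. In all 3 lines every library labelled gN1E was above every library labelled SCR. The log2 fold change, always given as gN1E label minus SCR label, was 2.66 (SE 0.074) in AMO1, 2.74 (SE 0.068) in H929 and 2.14 (SE 0.19) in LP1. The edgeR adjusted p was 5.1e-13, 3.11e-14 and 0.0269. In LP1 the call was lost without SCR library B or without gN1E library A, B or D, with an edgeR adjusted p of up to 0.176, while the log2 fold change was 2.00 to 2.25 over all 14 alternatives. The sample names written inside the count tables exchange SCR and gN1E in 18 of 18 libraries, and exchange H929 and LP1 in 12. Groups are used here as the sample labels give them, and under the names in the tables every gN1E minus SCR difference would carry the opposite sign.

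MALAT1 and NEAT1 are both abundant nuclear long non-coding RNAs. NEAT1 is the architectural RNA of paraspeckles, nuclear bodies that hold RNA-binding proteins, whereas MALAT1 resides in nuclear speckles, where splicing factors gather. The other members, which lie on either side of this pair, encode proteins with unrelated tasks. The group is thus united by place on the chromosome and not by pathway.

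Coordinates are those of hg38 with GENCODE 43. NEAT1 lies at chr11:65422774-65445540 on the plus strand. Before its start, in order of distance, come FRMD8 (chr11:65386621-65413525, plus strand, 9.2 kb away), SLC25A45 (chr11:65375192-65383701, minus strand, 39.1 kb), TIGD3 (chr11:65354751-65357613, plus strand, 65.2 kb), DPF2 (chr11:65333843-65354262, plus strand, 68.5 kb), CDC42EP2 (chr11:65314866-65322417, plus strand, 100.4 kb) and POLA2 (chr11:65261913-65305959, plus strand, 116.8 kb). After its end come MALAT1 (chr11:65497688-65506516, plus strand, 52.1 kb), LTBP3 (chr11:65538559-65558930, minus strand, 93.0 kb) and FAM89B (chr11:65572349-65574198, plus strand, 126.8 kb). Values are reads on the exons of each gene, summed.

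RefSeq promoter sequences (GRCh38.p14) were matched for 7 of the 9 genes, by 10 entries. The 250 bases before the RefSeq start of an entry are shown for MALAT1, which has 2 entries, and for SLC25A45 (the first of 2 entries) and POLA2, whose libraries separated by label in 1 line each. Capitals mark promoter motifs, each searched on both strands, so that its reverse complement is marked too. The GC box, bound by Sp1, was searched as GGGCGG. The element bound by NF-Y was searched as CCAAT. The element bound by the TATA-binding protein was searched as TATAAA.
MALAT1 entry 1, chr11:65497488-65497737, plus strand: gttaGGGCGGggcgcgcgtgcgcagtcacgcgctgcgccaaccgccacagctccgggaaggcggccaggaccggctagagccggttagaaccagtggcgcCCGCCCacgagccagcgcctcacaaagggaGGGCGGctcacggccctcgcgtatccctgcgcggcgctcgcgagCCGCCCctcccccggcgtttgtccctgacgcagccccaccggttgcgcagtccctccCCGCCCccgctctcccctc
MALAT1 entry 2, chr11:65498795-65499044, plus strand: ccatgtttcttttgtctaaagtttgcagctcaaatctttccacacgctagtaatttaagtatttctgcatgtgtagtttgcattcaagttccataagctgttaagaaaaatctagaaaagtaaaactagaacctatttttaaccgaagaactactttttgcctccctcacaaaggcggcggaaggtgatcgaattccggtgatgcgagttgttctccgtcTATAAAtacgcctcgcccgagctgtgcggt
SLC25A45 entry 1, chr11:65382647-65382896, minus strand: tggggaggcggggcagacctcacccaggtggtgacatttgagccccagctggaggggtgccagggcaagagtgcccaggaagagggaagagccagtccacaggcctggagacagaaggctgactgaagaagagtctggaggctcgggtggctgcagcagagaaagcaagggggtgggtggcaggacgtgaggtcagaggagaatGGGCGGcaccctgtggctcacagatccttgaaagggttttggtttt
POLA2, chr11:65261712-65261961, plus strand: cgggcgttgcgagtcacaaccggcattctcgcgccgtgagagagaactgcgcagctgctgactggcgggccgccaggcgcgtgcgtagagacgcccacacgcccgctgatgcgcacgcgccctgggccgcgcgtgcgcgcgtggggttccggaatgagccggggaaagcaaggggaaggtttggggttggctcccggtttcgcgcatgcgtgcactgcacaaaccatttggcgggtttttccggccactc

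These starts are not those of the counted gene models: the first MALAT1 window and the POLA2 window run past the GENCODE start, and the SLC25A45 window lies inside the counted gene. The first MALAT1 entry held 5 GC boxes and was 75.2% G or C. The second MALAT1 entry lies inside the counted gene, was 41.2% G or C, and held the TATA element. A GC box was found in 6 of the 10 entries (5 of the 7 genes) and in 42.6% of 35116 RefSeq promoters of the same length. The NF-Y element was found in 4 of the 10 entries and in 32.0% of all promoters, and the TATA element in 1 of the 10 and in 10.7%. The E-box CACGTG was in 0 of the 10 and in 6.34% of all promoters. The POLA2 window held none of these motifs. Such matches describe the letters of the window only.

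None of the 9 neighbours passed the edgeR test fitted to each line with TMM scaling, the filter on low counts and no replicate block, although NEAT1 differed by 4.40-fold to 6.67-fold. Under some other settings, given below, SLC25A45 in AMO1 and MALAT1 in H929 and LP1 passed it. All 9 passed the filter on low counts in each line. The edgeR quasi-likelihood test at an adjusted p of 0.05 called 0 of 9 in AMO1, where 2.06% of 22933 genes were called, 0 of 9 in H929, where 5.47% of 23499 were called, and 0 of 9 in LP1, where 1.43% of 23165 were called. With the replicate letter as a block, edgeR called 1 of 9 in AMO1, SLC25A45, where 6.08% of all genes were called. At an unadjusted p under 0.05 there was 1 member in AMO1, 1 in H929 and 2 in LP1, beside 12.2%, 17.7% and 13% of all genes. With limma-voom the count was 0, 1 and 1, beside 1.67%, 4.25% and 1.13% of all genes. With DESeq2 it was 0, 0 and 1, beside 2.71%, 5.48% and 2.11%. In H929 and LP1 that gene was MALAT1. The median log2 fold change of the members was -0.03 in AMO1, -0.0087 in H929 and 0.0059 in LP1, beside -0.016, -0.0096 and -0.0012 over all genes tested. Members lay above 0 in 3, 4 and 5 of 9 cases and below 0 in 6, 5 and 4. Labels did not overlap for 1 member in AMO1, 0 in H929 and 2 in LP1, beside 17.7%, 21.7% and 18.1% of all genes tested.

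**Figure D1:**
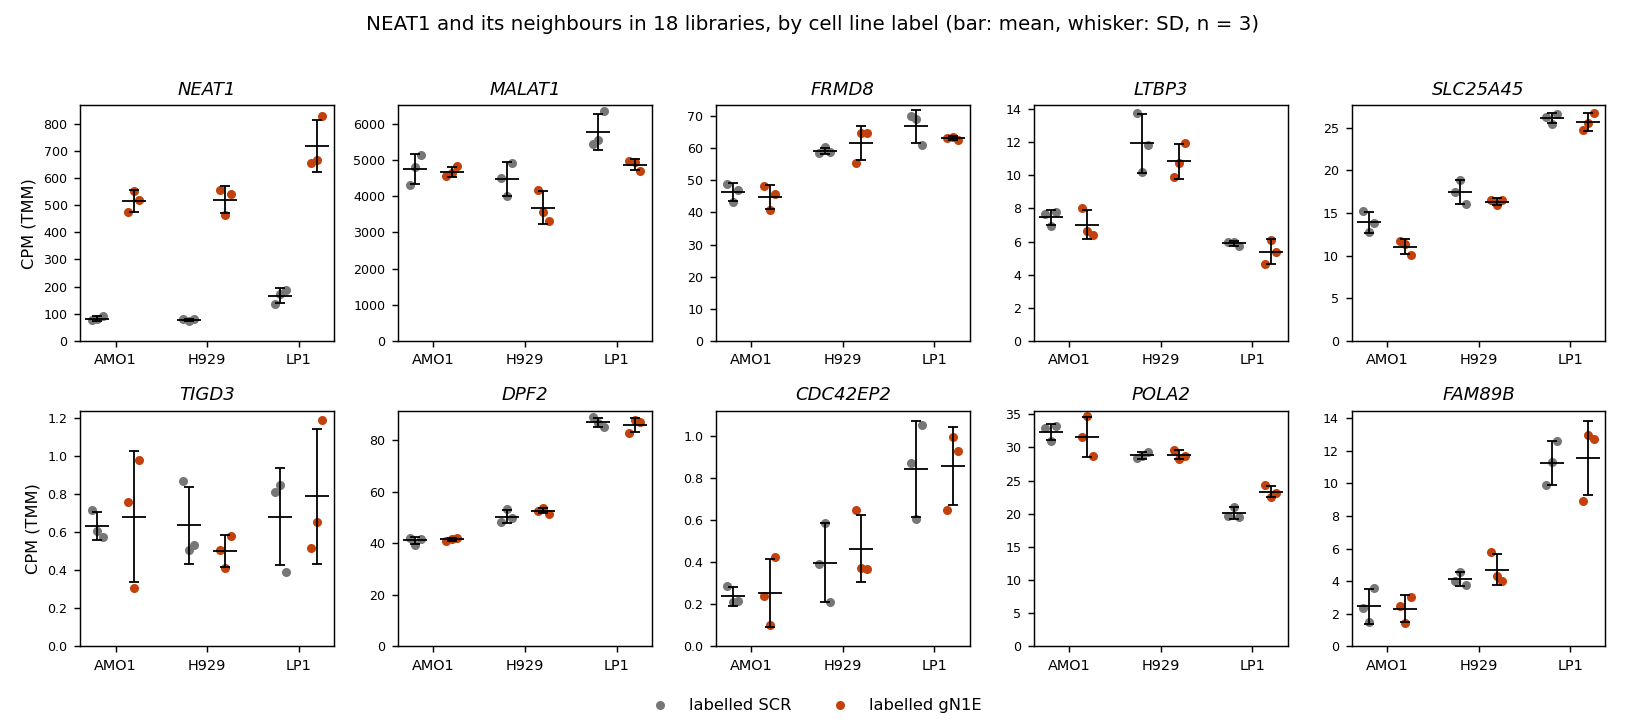
Level (CPM, y axis from 0) of NEAT1 and each of the 9 neighbours by cell line label (x axis), with 1 point per library, grey for SCR and orange for gN1E, and the mean and SD of 3 libraries as bar and whiskers. NEAT1 separates by label in all 3 lines, whereas among the neighbours MALAT1 and POLA2 separate in LP1 and SLC25A45 in AMO1.

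MALAT1 was the most abundant member and lay lower under gN1E in H929 and LP1, without passing that test in either. In LP1 the libraries labelled SCR stood at 5431, 5559 and 6355 CPM, and those labelled gN1E at 4974, 4950.0 and 4693 CPM. All 3 libraries labelled gN1E were below all 3 labelled SCR. The log2 fold change was -0.23 (SE 0.058, 95% interval -0.35 to -0.11), with an edgeR adjusted p of 0.0553. It passed the threshold with limma-voom (-0.22), DESeq2 (-0.23), no filter on low counts (-0.23) and without SCR library A (-0.27). Without SCR library D it was -0.14 and was not called, and over the 14 alternatives the adjusted p ran from 0.000262 to 0.258. The summed level of the 11 markers of other cells moved alongside in LP1, from 15.6 to 16.3 CPM under SCR and from 11.7 to 15.1 CPM under gN1E, most of it CD3E, with the T cell marker CD3D at 0.0399 CPM or less in every library. Its part in the result was not tested.

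In H929, MALAT1 stood at 4515, 3998 and 4928 CPM under SCR and at 4178, 3573 and 3313 CPM under gN1E. Here the groups overlapped, since SCR library B lay below gN1E library A. The log2 fold change was -0.29 (SE 0.11, 95% interval -0.56 to -0.03), with an edgeR adjusted p of 0.227. It was called with limma-voom, without SCR library B (-0.37) and without gN1E library A (-0.39), was -0.22 and not called without SCR library C, and the adjusted p ran from 0.0031 to 0.521 over 14 alternatives. The summed level of the 8 plasma cell markers also separated by label in H929. It was 17463 to 18393 CPM under SCR and 19537 to 20740 CPM under gN1E. Most of the sum was SDC1, at 11514 to 14346 CPM over both labels. The part of this sum in the H929 results, here and for genes named below, was not tested.

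In AMO1 the libraries labelled SCR held 4322, 4808 and 5140.3 CPM of MALAT1 and those labelled gN1E 4559, 4655 and 4832 CPM. The gN1E libraries lay within the SCR range, and the log2 fold change was -0.02 (SE 0.059, 95% interval -0.14 to 0.10, edgeR adjusted p 0.932). Any change of MALAT1 larger than 1.10-fold lay outside that interval. The difference of the MALAT1 effect between AMO1 and H929 was 0.26 (95% interval -0.0032 to 0.52) and that between AMO1 and LP1 0.22 (-0.037 to 0.49), and neither passed the test.

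MALAT1 took 0.347% to 0.575% of all counts in a library. Per exonic length it exceeded NEAT1 by 82.8-fold to 161-fold in the libraries labelled SCR and by 14.6-fold to 24.8-fold in those labelled gN1E. The ranges of the 2 labels did not overlap, but NEAT1 itself separated by label in each line, so this is no result about MALAT1.

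TALAM1, the antisense transcript of the MALAT1 locus, overlaps MALAT1 by 7205 bases on the opposite strand, and the counting used strand. Its counts, 51 to 374 per library, amounted to 0.0345% to 0.14% of those of MALAT1. Whether they include MALAT1 reads assigned to the wrong strand was not tested. In LP1 its mean was 4.45 CPM under SCR and 2.65 CPM under gN1E, with no overlap between the groups and a log2 fold change of -0.71 (SE 0.18, edgeR adjusted p 0.0672). It was called in LP1 with DESeq2 (-0.72), no filter (-0.71), and without SCR library A (-0.86) or gN1E library A (-0.97), and was as small as -0.57 with a library left out. In H929 the means were 4.50 and 1.93 CPM, with overlap (-1.22, SE 0.59, edgeR adjusted p 0.41), and the difference was called without SCR library B (-1.61), whereas without SCR library C it was -0.80 with an edgeR adjusted p of 0.631. In AMO1 they were 3.54 and 3.70 CPM.

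FRMD8, which encodes a FERM domain protein that binds iRhom proteins, is the nearest member to NEAT1. In AMO1 it stood at 48.8, 43.3 and 47.0 CPM under SCR and at 48.1, 40.7 and 45.9 CPM under gN1E. In H929 the values were 58.4, 60.4 and 58.7 CPM against 55.3, 64.7 and 64.9 CPM. In LP1 they were 70.2, 69.1 and 61.0 CPM against 63.3, 63.6 and 62.5 CPM. The labels overlapped in all 3 lines. The log2 fold change was -0.04 in AMO1 (95% interval -0.19 to 0.11), 0.05 in H929 (-0.07 to 0.16) and -0.06 in LP1 (-0.17 to 0.05).

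SLC25A45, a member of the mitochondrial solute carrier family, separated by label in AMO1. The libraries labelled SCR held 15.2, 12.7 and 13.8 CPM and those labelled gN1E 11.7, 11.4 and 10.1 CPM, so all 3 gN1E libraries were lower. Depth also separated these groups, with 28061606 to 49784737 counts under gN1E and 53227560 to 66142827 under SCR, and its part was not tested. The log2 fold change was -0.32 (SE 0.098, 95% interval -0.53 to -0.12), with an edgeR adjusted p of 0.116, and ran from -0.38 to -0.25 with a library left out. With the replicate letter as a block edgeR called it at an adjusted p of 0.0154, and it was also called with library size only, no filter and the joint fit of all libraries. In H929 it ranged over 15.9 to 18.9 CPM and in LP1 over 24.7 to 26.8 CPM, with overlap in both, and the log2 fold changes were -0.11 and -0.0014. The difference of its effect between AMO1 and LP1 was -0.30 (95% interval -0.52 to -0.08), which had an unadjusted p of 0.00941 and did not pass edgeR's adjusted threshold.

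POLA2, the accessory subunit of the DNA polymerase alpha and primase complex, separated by label in LP1 in the other direction. It stood at 19.7, 21.1 and 19.6 CPM under SCR and at 24.3, 22.6 and 23.2 CPM under gN1E. All 3 gN1E libraries were higher, and the log2 fold change was 0.24 (SE 0.067, 95% interval 0.10 to 0.38), with an edgeR adjusted p of 0.087 that ran from 0.0517 to 0.315 over 14 alternatives. In AMO1 and H929 the labels overlapped, with log2 fold changes of -0.03 and -0.0087. The difference of its effect between AMO1 and LP1 was -0.25 (95% interval -0.44 to -0.06) and did not pass edgeR's adjusted threshold.

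DPF2 is a subunit of the BAF chromatin remodelling complex. Its log2 fold change was 0.02 in AMO1 (95% interval -0.12 to 0.15), 0.05 in H929 (-0.06 to 0.16) and 0.0059 in LP1 (-0.10 to 0.11), with overlap in each line. LTBP3, which encodes a latent TGF-beta binding protein of the extracellular matrix, lay below 0 in all 3 lines, at -0.08, -0.15 and -0.12, with intervals that included 0 and labels that overlapped. With a library left out these values came as near to 0 as -0.016 (without AMO1 gN1E library D), -0.029 (without H929 SCR library A) and -0.011 (without LP1 gN1E library A). FAM89B, an adaptor protein also known as LRAP25, had log2 fold changes of -0.07, 0.18 and 0.05. FAM89B shares 1030 exonic bases on the same strand with ZNRD2, and reads falling in both genes were not counted, so its level is uncertain.

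TIGD3, a gene derived from a pogo-like transposase, and CDC42EP2, an effector of the small GTPase CDC42, had few reads. TIGD3 had 9 to 51 reads per library and CDC42EP2 3 to 55. The level of CDC42EP2 is uncertain, since 1874 of its 2164 exonic bases are shared on the same strand with ENSG00000285816.1, and reads falling in both were not counted. POLA2 shares 2012 of 12006 exonic bases with the same transcript, which had at most 30 reads in a library. Their log2 fold changes ran from -0.38 to 0.20 and from 0.04 to 0.18, and the widest interval was that of CDC42EP2 in AMO1, from -1.00 to 1.20. At this depth a 2.30-fold change of CDC42EP2 in AMO1 would lie within the interval.

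**Figure D2:**
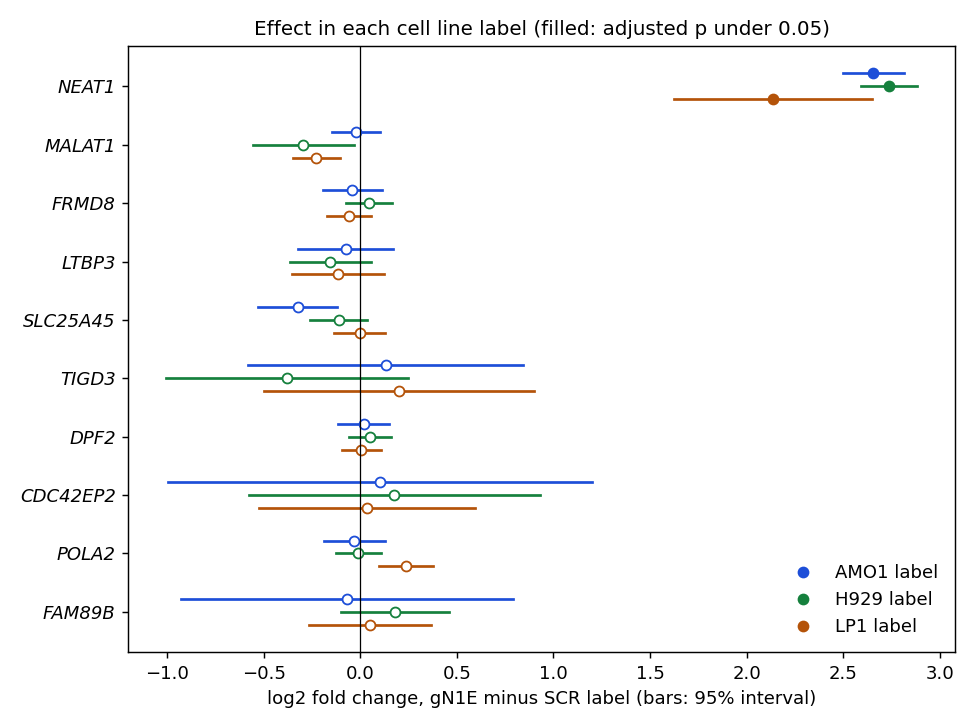
Log2 fold change of gN1E minus SCR label (x axis) with its 95% interval for NEAT1 and the 9 neighbours (y axis), coloured by cell line label, with filled points for an adjusted p under 0.05. Filled points are found for NEAT1 alone, and the neighbours lie between -0.38 and 0.24.

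No difference in response between lines passed the adjusted threshold for a neighbour. The interaction test of edgeR called 0 of 9 members for AMO1 minus H929, where it called 0% of 26436 genes, 0 of 9 for AMO1 minus LP1, where it called 0.741%, and 0 of 9 for H929 minus LP1, where it called 0.874%. At an unadjusted p under 0.05 there were 1, 2 and 1 members, beside 6.7%, 10.7% and 10.1% of all genes. For H929 minus LP1 that member was POLA2, at -0.21 (95% interval -0.40 to -0.02). DESeq2 on the same contrasts also called 0 members in each, beside 0.0189%, 1.91% and 1.4% of all genes.

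The wider neighbourhood showed few calls. Of the other genes within 1 Mb, edgeR called 3 of 84 tested in AMO1 (3.57%), 3 of 80 in H929 (3.75%) and 1 of 87 in LP1 (1.15%), beside 2.06%, 5.47% and 1.43% of all genes. In AMO1 the count was 9 with the replicate block, under which 6.08% of all genes were called. Within 150 kb, the members included, edgeR with TMM scaling, the filter and no block called 0 of 24, 0 of 24 and 0 of 25. In that fit 2, 4 and 4 had an unadjusted p under 0.05, that is 8.33%, 16.7% and 16.0% beside 12.2%, 17.7% and 13% of all genes. With the replicate block edgeR called SLC25A45, 39.1 kb away, in AMO1 (adjusted p 0.0154). It was also called there with library size only, no filter and the joint fit. Also within 150 kb, MALAT1 and TALAM1 were each called in H929 and LP1 under some settings, as given above. The median log2 fold change within 1 Mb was -0.15 in AMO1, -0.014 in H929 and -0.045 in LP1. Below 0 lay 64 of 84, 43 of 80 and 59 of 87 of these genes (76.2%, 53.8% and 67.8%), beside 53.5%, 52.1% and 50.3% of all genes. Median depth under SCR and gN1E was 56549069 and 29663430 counts in AMO1, 48902120 and 56022788 in H929 and 64358551 and 45406587 in LP1. A gene passed the filter on low counts where 1 library held enough reads. The part of depth and of this filter in these medians and shares was not tested.

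The other genes called with TMM scaling, the filter on low counts and no replicate block lay 180 to 917 kb from NEAT1. SLC29A2, an equilibrative nucleoside transporter 917 kb away, rose in H929 from a mean of 33.1 to 42.8 CPM (log2 fold change 0.36, SE 0.054, edgeR adjusted p 4.66e-05) and was called in all 14 alternatives. SF1, which encodes a splicing factor of branch point recognition, rose in H929 by 0.19 (edgeR adjusted p 0.0177). The SF1 call was lost with library size only (0.14), with the joint fit (0.20), and without SCR library A (0.18) or C (0.17) or gN1E library A (0.16) or B (0.18). In AMO1, RASGRP2, a guanine nucleotide exchange factor for Rap proteins, fell by 0.34 (edgeR adjusted p 0.0139), RIN1, a Ras effector, fell by 1.01 (edgeR adjusted p 0.0214), and the pseudogene SLC22A20P fell by 0.90 (edgeR adjusted p 0.0406). These 3 calls were each lost without SCR library D (-0.29, -0.93 and -0.94) and without gN1E library C (-0.31, -0.91 and -0.92) or D (-0.31, -0.84 and -0.81), and that of SLC22A20P without any 1 library. With limma-voom RIN1 (-1.00) and SLC22A20P (-0.87) were not called, and DESeq2 gave SLC22A20P no adjusted p. In the AMO1 libraries labelled gN1E, RIN1 had 22 to 68 reads and SLC22A20P 22 to 46. Depth separated the AMO1 groups, as given for SLC25A45, and its part in these calls was not tested.

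CAPN1-AS1, an antisense RNA 240.9 kb before NEAT1, was lower under gN1E in all 3 lines with no overlap between labels. The means under SCR and gN1E were 3.09 and 2.18 CPM in AMO1, 3.68 and 2.51 CPM in H929 and 10.00 and 7.49 CPM in LP1. The log2 fold changes were -0.51, -0.57 and -0.39, and edgeR called the fall in H929 (adjusted p 0.0114) and LP1 (0.0336) but not in AMO1 (0.153). The H929 call was lost without SCR library A (-0.50) or gN1E library B (-0.53). The LP1 call held in 6 of 14 alternatives and was lost without SCR library A or B or gN1E library A, B or D, at -0.43 to -0.35, and with limma-voom, the replicate block and the joint fit, at -0.42 to -0.39. In AMO1 it was called with the joint fit (-0.52). The transcripts directly beside NEAT1, ENSG00000290057.1 at 0.9 kb and ENSG00000291174.1 at 9.7 kb, were not called, the latter having log2 fold changes of -0.11, -0.19 and 0.05. Nor were ENSG00000286756.3 and ENSG00000270117.2, which lie next to or within MALAT1.

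**Figure D3:**
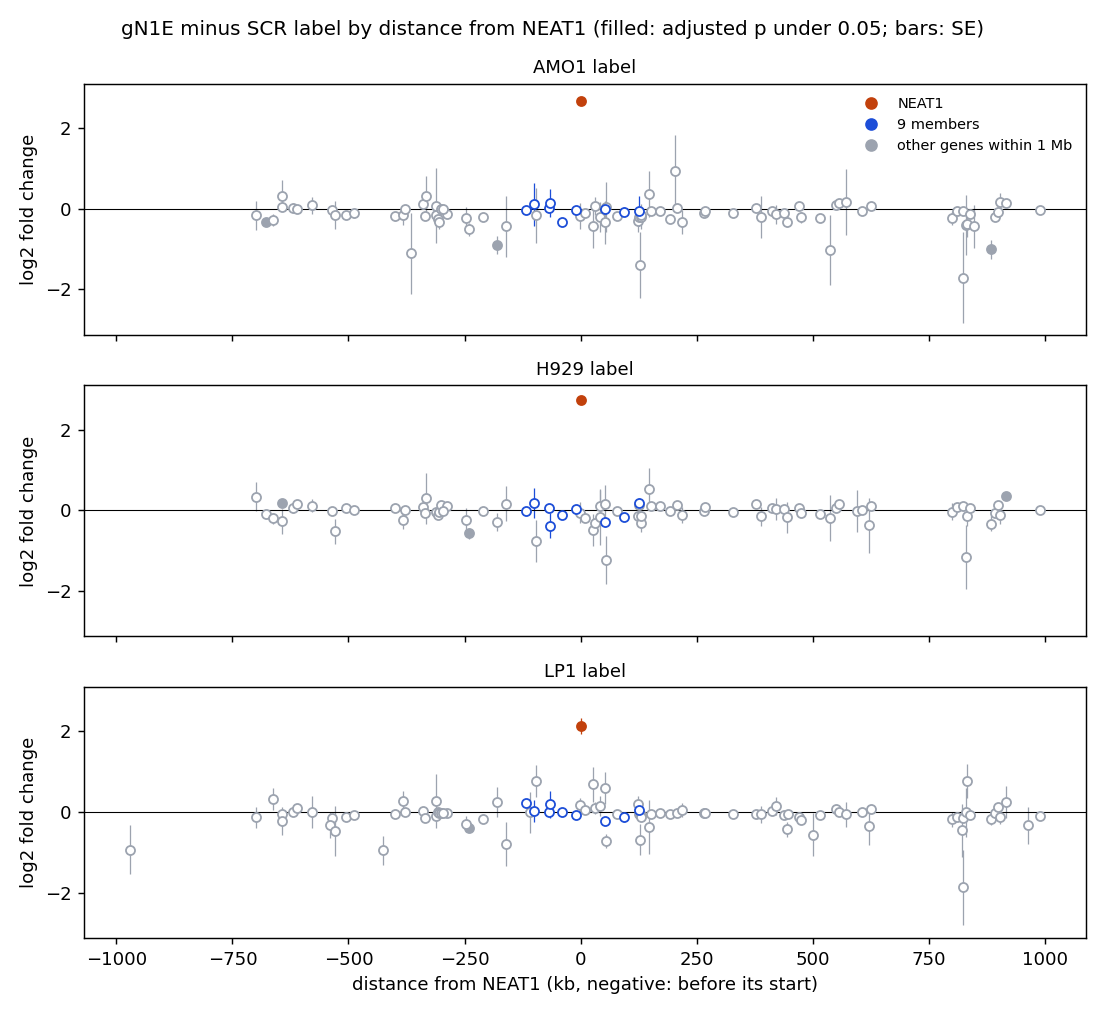
Log2 fold change of gN1E minus SCR label with its SE (y axis) against the distance from NEAT1 in kb (x axis, negative before its start) for the genes tested within 1 Mb, in 1 panel per cell line label, with filled points for an adjusted p under 0.05. NEAT1 lies at 2.14 to 2.74, the 9 neighbours lie near 0, and the called genes of the wider region are more than 150 kb away.

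The level of most members differed between cell lines. Levels are compared between genes as CPM per kilobase of exon (FPKM), over all exonic bases of a gene, also those shared with another gene, where reads were not counted. MALAT1 was highest in all lines, with 535 ± 31.4 in AMO1, 463 ± 67.4 in H929 and 603 ± 67.8 FPKM in LP1 (SD, n = 6). FRMD8 followed with 11.2, 14.8 and 16.0 FPKM, and DPF2 with 4.51, 5.62 and 9.43 FPKM. On this length the 3 genes did not overlap with each other or with the next in any line.

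Below them the order on this length depended on the line. In AMO1 it was POLA2 (2.66 FPKM), FAM89B (1.64) and SLC25A45 (1.59), of which FAM89B overlapped with both. In H929 it was FAM89B (3.03 FPKM), POLA2 (2.40) and SLC25A45 (2.15), the last 2 overlapping. In LP1 it was FAM89B (7.83 FPKM), SLC25A45 (3.29) and POLA2 (1.81), with no overlap. LTBP3 came next in each line, at 0.629, 0.989 and 0.489 FPKM, and TIGD3 and CDC42EP2 overlapped with each other at the end. In LP1 LTBP3 overlapped with both. The places of FAM89B and CDC42EP2 depended on the length used. Over only those exonic bases that no other gene on the strand holds, a length chosen after the values were seen, FAM89B (428 bases) stood at 5.6, 10.3 and 26.7 FPKM in AMO1, H929 and LP1. It was then above FRMD8 in LP1, and above DPF2 in H929 and LP1, with no overlap. CDC42EP2 (290 bases) stood at 0.852, 1.49 and 2.94 FPKM, a mean above that of LTBP3 in each line, with no overlap in LP1, and POLA2 at 3.20, 2.89 and 2.17 FPKM. MALAT1 was highest on either length.

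**Figure D4:**
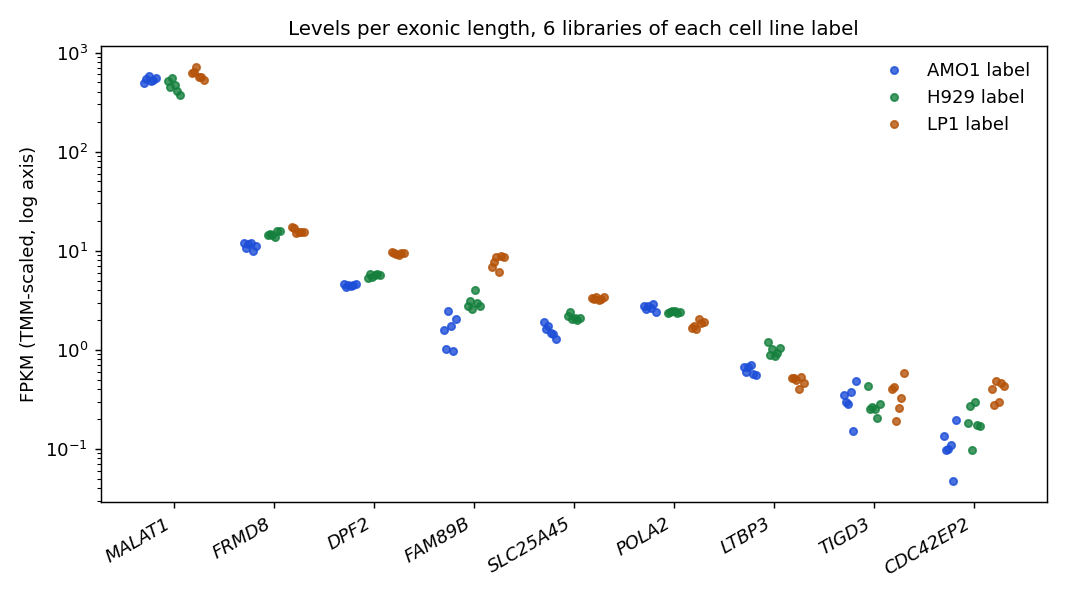
Level per exonic length (FPKM over all exonic bases, logarithmic y axis) of the 9 neighbours (x axis, by falling mean), with 1 point for each of 6 libraries of a cell line label. MALAT1 averages 463 to 603, FAM89B averages 1.64 in AMO1 and 7.83 in LP1, and POLA2 2.66 and 1.81.

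Over both labels, edgeR called 8 of 9 members between each pair of lines, beside 44.4% of genes for AMO1 minus H929, 75.9% for AMO1 minus LP1 and 74.6% for H929 minus LP1. The exception was TIGD3 in each pair. FAM89B differed most, at a log2 difference of -2.25 (SE 0.20, edgeR adjusted p 1.23e-07) for AMO1 minus LP1 and -1.37 for H929 minus LP1. CDC42EP2 (-1.77), DPF2 (-1.06) and SLC25A45 (-1.06) were also lower in AMO1 than in LP1. POLA2 went the other way, at 0.56 for AMO1 minus LP1 and 0.41 for H929 minus LP1. LTBP3 was highest in H929, by 1.02 over LP1 and by 0.65 on the log2 scale over AMO1, the latter coded as -0.65 for AMO1 minus H929.

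MALAT1 differed little between lines, at 0.22 for AMO1 minus H929, -0.17 for AMO1 minus LP1 and -0.38 for H929 minus LP1. Scaling by library size alone moved the median of all genes by 0.18 for AMO1 minus LP1 and by 0.19 for H929 minus LP1. Under it MALAT1 stood at 0.01 for AMO1 minus LP1 and FRMD8 turned from -0.11 to 0.09 for H929 minus LP1. The MALAT1 call for AMO1 minus LP1 was also lost without AMO1 SCR library A (-0.14) or LP1 SCR library D (-0.13). That of FRMD8 for H929 minus LP1 was lost, at -0.11 to -0.07, without LP1 SCR library A or B, LP1 gN1E library A, B or D, H929 SCR library A or C, or H929 gN1E library A. That of CDC42EP2 for AMO1 minus H929 (-0.81) was lost without AMO1 gN1E library C (-0.66), H929 SCR library B (-0.63) or H929 gN1E library A (-0.66). The line and the culture series cannot be told apart, and the names inside the tables place H929 and LP1 the other way round. In such bulk RNA, fewer cells of a kind and less RNA per cell cannot be told apart either.

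Genes that varied with MALAT1 were sought across the 18 libraries after centring log2 CPM on each line, among 10762 genes with a symbol and a mean log2 CPM of at least 2. The most alike were UBLCP1 (Pearson r 0.90), NPM1P27 (0.88), MT-ND6 (0.88), ARMCX3 (0.88) and SUB1 (0.87). None of them lies among the 9. Of the members, LTBP3 had 0.21, FAM89B 0.08, SLC25A45 -0.01, POLA2 -0.35, FRMD8 -0.36 and DPF2 -0.42. NEAT1, at -0.58, ranked 9932. CDC42EP2 and TIGD3 were below the level required. Centring on the line left the difference between labels in place, so the value of NEAT1 also holds the label differences of MALAT1 given above. These points share libraries and depth, and are given as a description.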

How the data were processed

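Total RNA libraries (TruSeq Stranded Total RNA, paired reads) of 18 samples were examined. The authors aligned reads to hg38 with STAR 2.7.10a and deposited raw counts per gene from featureCounts 1.6.4 with GENCODE 43, counting exons by strand and leaving out reads that fall in several genes. Labels give 48 h, whereas the design text gives days. Samples were grouped by their labels. A gene was kept where 1 or more libraries of a fit held 10 reads or more, and edgeR 4.0.16 (TMM, quasi-likelihood, robust) was fitted for each line, with Benjamini-Hochberg adjustment over all genes and a threshold of 0.05. Responses and levels between lines came from 1 joint fit of 18 libraries. CPM use TMM over all libraries. Alternatives were limma-voom 3.58.1, DESeq2 1.42.0, other scalings and filters, a replicate block, each library left out, and other windows. Members, lists and the naming rule were chosen with earlier results of these data known. Named besides the members were NEAT1, called genes within 1 Mb (at most 6 by adjusted p), transcripts beside NEAT1 or MALAT1, and the 5 genes most like MALAT1. Of these, 1 gene is not reported here. Letters paired libraries in AMO1, where same-letter deviations correlated at 0.372, 0.351 and 0.19 (gN1E D correlated at 0.203 with SCR C, so D was not set apart). They did not in H929. In LP1, of the same-letter libraries only those of A deviated together, but so did gN1E D with SCR B (0.342) and gN1E B with SCR D (0.24). The edgeR fit was tested on simulated data, where its share of false calls was well above the nominal rate in each line, which bears on every edgeR call given. It also missed many of the smaller changes put into those data, which bears on the neighbours that were not called. With 3 libraries per group, an exact permutation test cannot go below 0.1 and was not used.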

Additional observations from a re-analysis of the deposited data

How the results depend on the processing

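The fold of NEAT1 kept its direction in every alternative run, no alternative called a member for a response that differs between lines, and the count of members at a different level between lines was 7 or 8 of 9, beside 41.8% to 45% of all genes for AMO1 minus H929, 74.3% to 76.8% for AMO1 minus LP1 and 73.1% to 75.4% for H929 minus LP1. Called members in AMO1 became 1 of 9, SLC25A45, with library size only, no filter, the replicate block and the joint fit, beside 2.63%, 2.24%, 6.08% and 2.6% of all genes. They became 1 in H929 with limma-voom (4.25% of all genes), and 0 to 1 with a library left out (1 without SCR B or gN1E A, beside 5.45% and 4.35%). In LP1 they became 1 with limma-voom, DESeq2 and no filter (1.13%, 2.11% and 1.84%), and 0 to 1 with a library left out (1 without SCR A, beside 0.54%). Of the other genes within 1 Mb in AMO1, 1 of 84 was called with limma-voom (1.67% of all genes), 5 of 84 with library size only, 6 of 122 with no filter, 9 of 84 with the replicate block and 1 of 52 within 500 kb (2.06%), and 0 to 5 with a library left out (0 without SCR D or gN1E C or D, beside 1.15%, 1.26% and 1.11%, and 5 of 84 without gN1E A, beside 2.44%). In H929 it was 5 of 120 with no filter (4.3%), 1 of 49 within 500 kb and 6 of 152 within 2000 kb (5.47%), and 1 to 7 with a library left out (1 without SCR A or gN1E B, beside 3.06% and 3%, and 7 of 80 without SCR B). In LP1 it was 0 with limma-voom, the replicate block (1.05%) and the joint fit (0.98%), 2 of 87 with DESeq2, 4 of 126 with no filter and 0 to 6 with a library left out (0 without SCR B or gN1E B or D, beside 0.381%, 0.762% and 0.876%, and 6 of 87 without SCR D, beside 3.41%). Library size only moved the share of all called genes that were higher under gN1E from 79.7% to 51.2% in AMO1, from 67.7% to 42.8% in H929 and from 45.8% to 63.8% in LP1. Under the names in the count tables these would be the shares lower under gN1E, and those of H929 and LP1 would change places. Counted as higher and lower under the gN1E label, the AMO1 calls went from 377 and 96 to 309 and 295. The cause of these shifts was not tested.

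Small differences changed sign. With library size only, DPF2 in AMO1 became -0.0195, TALAM1 in AMO1 -0.0066, SLC25A45 in LP1 0.027, and the levels of AMO1 minus LP1 0.0135 for MALAT1 and 0.028 for TIGD3, and of H929 minus LP1 0.0858 for FRMD8. With limma-voom, CDC42EP2 in AMO1 became -0.0185, FAM89B 0.0149 and TALAM1 -0.10. With the joint fit, POLA2 in H929 became 0.0037 and DPF2 in LP1 -0.0158, and with no filter DPF2 in LP1 -0.000846. Log2 fold changes that crossed 0 with a library left out are given as ranges. In AMO1 they were MALAT1 -0.079 to 0.041, FRMD8 -0.10 to 0.024, TIGD3 -0.16 to 0.44, DPF2 -0.0096 to 0.042, CDC42EP2 -0.39 to 0.43, POLA2 -0.10 to 0.034, FAM89B -0.34 to 0.31, SF1 -0.041 to 0.11, ENSG00000290057.1 -0.38 to 0.075, TALAM1 -0.54 to 0.45. In H929 they were CDC42EP2 -0.14 to 0.54, POLA2 -0.028 to 0.0102, ENSG00000290057.1 -0.34 to 0.17, ENSG00000286756.3 -0.26 to 0.31, ENSG00000270117.2 -0.28 to 0.38. In LP1 they were SLC25A45 -0.037 to 0.029, TIGD3 -0.22 to 0.45, DPF2 -0.0101 to 0.034, CDC42EP2 -0.16 to 0.23, FAM89B -0.041 to 0.21, SLC22A20P -0.0058 to 0.47, ENSG00000291174.1 -0.033 to 0.12. For levels AMO1 minus LP1 they were TIGD3 -0.29 to 0.059.

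The replicate block was checked by the letters. In AMO1 same-letter libraries deviated together, but gN1E D correlated at 0.203 with SCR C and at 0.19 with SCR D. In H929 (-0.142, -0.0781 and -0.212) same-letter libraries did not deviate together. In LP1 the A libraries deviated together (0.311), whereas those of B and D did not (-0.0834 and -0.153). Libraries of different letters did so too, gN1E D with SCR B at 0.342 and gN1E B with SCR D at 0.24. The intervals of TIGD3, CDC42EP2 and, in AMO1, FAM89B were wide. For MALAT1 the intervals reached a 1.10-fold change in AMO1 and a 1.47-fold change in H929.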

Other observations

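Within the region, 2 genes were almost absent from the libraries labelled LP1. SLC29A2 averaged 33.1 to 42.98 CPM in the AMO1 and H929 groups and 0.316 and 0.374 CPM in the LP1 groups. RASGRP2 averaged 28.4 to 39.5 CPM in the AMO1 and H929 groups and 0.0236 and 0.0224 CPM in the LP1 groups. CAPN1-AS1 showed the opposite order, with 2.18 to 3.68 CPM in AMO1 and H929 and 7.49 to 10.00 CPM in LP1.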
